A study of Mus musculus with 8 samples.

Results

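The mature miRNAs mmu-miR-143-3p, mmu-miR-145a-5p and mmu-miR-145a-3p (written without the species prefix from here on) are products of neighbouring hairpins that are expressed above all in smooth muscle. They were found on the array by their annotated names, and 3 of the 1881 mouse miRNAs it covers carry those names. The array probes for them target chromosome 18 of mouse build mm9. The targets lie at 61808895 to 61808909 for miR-143-3p, 61807494 to 61807507 for miR-145a-5p and 61807526 to 61807546 for miR-145a-3p, with 1315 bases between the miR-145a and the miR-143 targets. In the GRCm38.p6 annotation Mir143 and Mir145a both lie inside the span of the long noncoding RNA gene Carmn.

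The skin came from male mice with Ncstn flx/flx alleles and Krt14 CreER+/-, a genotype that both groups shared. The Ncstn product nicastrin is part of γ-secretase, the protease complex that releases the active fragment of Notch receptors, and the keratin 14 promoter directs the tamoxifen-activated Cre to basal keratinocytes. NcstnΔKC mice (4 samples) received tamoxifen by gavage at 20 mg/kg per day from 8 weeks of age, for 5 days and then every 10 days, and normal mice (4 samples) received corn oil. Skin was taken at 16 weeks, described as lesional in the labels' shared protocol text. Tamoxifen exposure is thus confounded with Ncstn deletion, and Ncstn mRNA was not measured. Because the labels leave unsaid whether each sample is its own mouse, p-values here reflect variation among the 8 samples, some of which may be technical.

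Smooth muscle cells of vessel walls and, in skin, of the arrector pili make miR-143 and miR-145 from a shared primary transcript under serum response factor and myocardin. Both miRNAs hold the cells in the contractile state, and the change to a synthetic, dividing state is accompanied by their loss. Pericytes and fibroblasts also express them, and Cre driven by the keratin 14 promoter is not directed to any of these cells.

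The arrays detected 198 to 238 miRNAs in NcstnΔKC skin and 235 to 273 in normal skin. All 8 arrays were read from 1 slide in 1 scan, the NcstnΔKC arrays in slide row 1 and the normal arrays in slide row 2, so an effect of the row and one of the group cannot be told apart. Signals were divided by the 75th percentile of the 301 probes detected on all arrays, which was 922 to 1160 scanner units in NcstnΔKC skin and 1215 to 1314 in normal skin. The scaled signals are given on the log2 scale, where values below a floor of -4.97 were set to it. With 4 arrays per group, their number limits the precision. The array NcstnΔKC 1 stood apart from the other NcstnΔKC arrays in the values of miR-145a-5p, and results are therefore also given without it.

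The comparison of NcstnΔKC with normal skin asked whether these smooth muscle miRNAs differed in abundance. miR-145a-5p, the main mature strand of its hairpin, had a lower mean scaled level in NcstnΔKC skin, but was detected on 1 of 4 NcstnΔKC arrays and on 4 of 4 normal arrays. No fold is given for it, since 3 of its 4 NcstnΔKC values were not above background. For miR-143-3p, which was detected on all 8 arrays, the group means differed by a factor of 1.43, lower in NcstnΔKC skin, and this difference did not pass the test. miR-145a-3p, the other strand of the miR-145a hairpin, was detected on 0 of the 8 arrays. Among all 222 tested miRNAs, 95 had an adjusted p below 0.05 (42.8%), 62 of them with lower values in NcstnΔKC skin (27.9%) and 33 with higher values (14.9%), and in 36.9% the groups did not overlap. Of the 2 tested members miR-145a-5p passed, but it entered the test only through its detection in normal skin, where it was higher, so its call adds no support beyond those detections. In whole skin, fewer smooth muscle cells and less of a miRNA per cell cannot be told apart.

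The scaled log2 levels of miR-143-3p were -0.88, -1.51, -1.91 and -2.15 on NcstnΔKC arrays 1 to 4, against -1.49, -1.25, -0.97 and -0.66 on normal arrays 1 to 4. NcstnΔKC 1 lay above 3 of the 4 normal arrays, while the other 3 NcstnΔKC arrays lay below every normal array, so the groups overlapped through a single array. The means were -1.61 ± 0.55 in NcstnΔKC skin and -1.09 ± 0.36 in normal skin (SD, n = 4 each). The log2 difference was -0.52 ± 0.30 (SE, limma, Benjamini-Hochberg adjusted p = 0.197). Its 95% interval ran from -1.20 to 0.17, that is from 2.30-fold lower to 1.12-fold higher in NcstnΔKC skin. With the percentile taken over all 4415 probes, of which 301 were detected on all arrays, the difference turned to 0.35 ± 0.69 (SE, limma adjusted p = 0.809). The median difference of all tested miRNAs turned with it, from -0.23 to 0.64. The difference of miR-143-3p was negative under the other scalings.

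Without NcstnΔKC 1, the difference of miR-143-3p was -0.76 ± 0.24 (SE, 3 against 4 arrays, limma adjusted p = 0.0426), or 1.69-fold lower in NcstnΔKC skin. The groups then no longer overlapped, with NcstnΔKC 2 at -1.51 next to normal 1 at -1.49. In that fit 42.5% of the 226 tested miRNAs passed, 27.9% with lower values in NcstnΔKC skin, and the groups did not overlap in 49.1%. The call on miR-143-3p thus turned on 1 array, which was left out because of its high miR-145a-5p, so the larger difference is no independent evidence.

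The scaled log2 levels of miR-145a-5p were -3.34, -4.83, -4.97 and -4.97 on NcstnΔKC arrays 1 to 4, against -3.81, -3.65, -3.18 and -2.92 on normal arrays 1 to 4. The last 2 NcstnΔKC values sit at the floor, NcstnΔKC 2 is just above it, and NcstnΔKC 1 falls inside the normal range. The means were -4.53 ± 0.80 in NcstnΔKC skin and -3.39 ± 0.41 in normal skin (SD, n = 4 each). The log2 difference was -1.14 ± 0.39 (SE, limma adjusted p = 0.0450, 95% interval -2.04 to -0.24), and the floor bounds how low the NcstnΔKC values can go. The median difference of all tested miRNAs was -0.23, so relative to it miR-145a-5p differed by -0.91 and miR-143-3p by -0.28.

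This call was close to the threshold. Without NcstnΔKC 1 the difference of miR-145a-5p was -1.54 (limma adjusted p = 0.00273), which supports nothing further. That array was left out for these same values, and the 3 others were undetected and at or next to the floor, which sets their small spread (SD 0.08). The call was lost without NcstnΔKC 2 (limma adjusted p = 0.109), NcstnΔKC 3 (0.118), NcstnΔKC 4 (0.104), normal 2 (0.0610), normal 3 (0.103) or normal 4 (0.113), and kept without normal 1 (0.0485). Over 19 other processing settings the difference was negative in 19 and passed the threshold in 5.

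**Figure D1:**
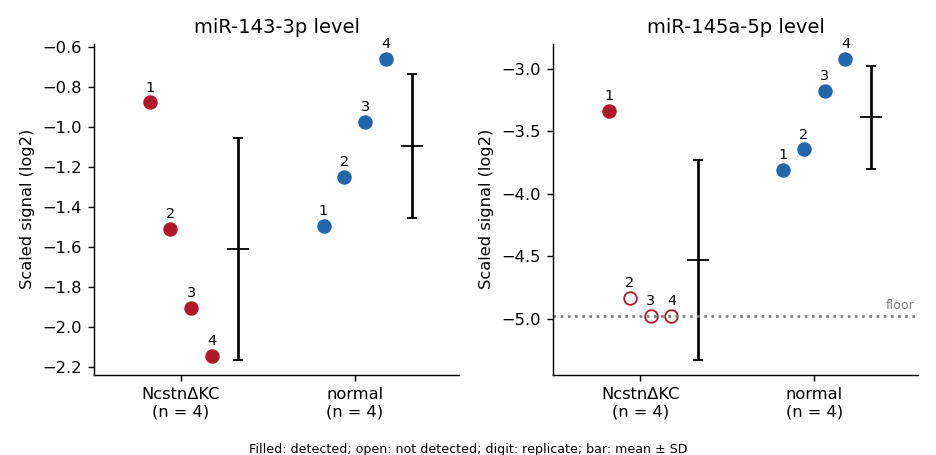
Scaled signal (log2) of miR-143-3p and miR-145a-5p on each array, NcstnΔKC left and normal right, with the replicate number above each point, open points where the miRNA was not detected, bars for the mean ± SD (n = 4 each) and a dotted line at the floor of -4.97. NcstnΔKC 1 lies among the normal arrays in both panels, and the other 3 NcstnΔKC arrays lie below every normal array.

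Each miRNA was read by repeated spots of several probes. Both probes of miR-143-3p were printed as 15 spots, and all 113 used spots were above background on the NcstnΔKC arrays, as were all 116 on the normal arrays. Summed over its probes, the processed intensity of miR-143-3p was 632, 323.7, 283.0 and 241.8 scanner units on NcstnΔKC arrays 1 to 4, against 452.5, 511.3, 626.7 and 832.4 on normal arrays 1 to 4. The ratio of mean scaled signal, NcstnΔKC over normal, was 0.725 for one probe (A_54_P2404) and 0.723 for the other (A_54_P2405), so the 2 probes gave nearly the same ratio.

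The miR-145a-5p signal was much closer to the background. Its summed intensity was 114.7, 32.4, 22.0 and 28.0 scanner units on NcstnΔKC arrays 1 to 4, against 90.8, 97.1, 135.8 and 173.2 on normal arrays 1 to 4. The brighter probe, A_54_P2315, gave 74.8, 26.2, 19.4 and 23.4 units on NcstnΔKC arrays 1 to 4, against 61.2, 63.7, 87.2 and 110.1 on normal arrays 1 to 4. Of its spots, 15 of 58 were above background on the NcstnΔKC arrays, all of them on NcstnΔKC 1, and 56 of 57 on the normal arrays.

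The dimmer probe, A_54_P2314, was detected on 0 NcstnΔKC arrays and 1 normal array, with 2 of 54 and 18 of 58 spots above background. Its signal was 39.9, 6.16, 2.60 and 4.54 units on NcstnΔKC arrays 1 to 4, against 29.6, 33.4, 48.6 and 63.1 on normal arrays 1 to 4. With so few spots above background, the size of the difference was not compared between the probes. Spot-to-spot variation was 10.0% to 26.8% of the mean for A_54_P2315, against 3.70% to 9.75% for the brighter miR-143-3p probe.

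**Figure D2:**
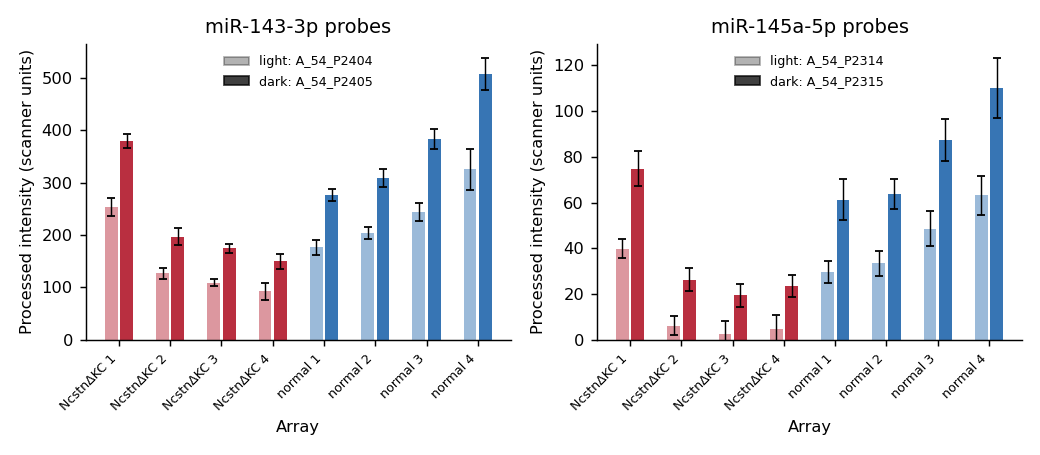
Mean processed intensity (scanner units, linear axis from 0) of each probe on each array, NcstnΔKC arrays in red and normal arrays in blue, light and dark bars for the 2 probes of a miRNA and error bars for the SD over spots. On NcstnΔKC 2 to 4 the probes of miR-145a-5p lie between 2.60 and 26.2 units, against 29.6 to 110.1 units on the normal arrays.

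The miR-145a-3p strand, which is usually discarded when the hairpin is processed, had 4 probes with 7 to 8 spots each. Of the spots used, 0 of 111 on NcstnΔKC arrays and 0 of 107 on normal arrays were above background, and the probe means lay between -7.03 and 12.3 scanner units after background subtraction. Every scaled value was therefore at the floor, and no difference was computed. In the authors' deposited log2 values miR-145a-3p was 3.37, 3.41, 3.46 and 3.38 on NcstnΔKC arrays 1 to 4, against 3.35, 3.36, 3.41 and 3.40 on normal arrays 1 to 4, where the median of all miRNAs was 3.24 to 3.25 on each array. A limma fit to those values over all 1881 miRNAs gave a difference of 0.03 ± 0.02 (SE, adjusted p = 0.579). The other strand of the miR-143 hairpin, miR-143-5p, was also detected on 0 arrays. So was miR-145b, whose probes have no annotated position and whose gene lies outside the span of Carmn.

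The deposited values of the 2 detected members gave the same order of arrays within each group where the scaled values were not tied at the floor, except for 1 exchange of the nearly equal normal 1 and normal 2 in miR-145a-5p. miR-143-3p was at 8.32, 7.42, 6.90 and 6.50 on NcstnΔKC arrays 1 to 4, against 7.30, 7.38, 7.96 and 8.30 on normal arrays 1 to 4. miR-145a-5p was at 5.07, 3.86, 3.68 and 3.65 on NcstnΔKC arrays 1 to 4, against 4.37, 4.29, 5.05 and 5.48 on normal arrays 1 to 4. On this scale neither passed the test among the 222 tested miRNAs, with differences of -0.45 ± 0.41 for miR-143-3p (SE, limma adjusted p = 0.411) and -0.73 ± 0.39 for miR-145a-5p (SE, limma adjusted p = 0.188), and 72 of the 222 passed (32.4%).

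The second comparison asked whether miR-143-3p and miR-145a-5p followed each other from array to array. The 4 normal arrays had the same order in both miRNAs, from normal 1, the lowest, to normal 4, the highest. NcstnΔKC 1 was the highest NcstnΔKC array in both. Across the 8 arrays Pearson's r of the scaled log2 values was 0.93 (exact permutation p = 0.000794) and Spearman's rho 0.97 (exact permutation p = 0.000595), for the 1 pair of members that could be compared, so that adjustment leaves these values as they are.

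Without NcstnΔKC 4 and normal 4, the 2 arrays farthest from the median of miR-143-3p, r was 0.89 (n = 6, exact permutation p = 0.0153, with the same limit). Taken as deviations from the group means the r was 0.93, given as a description. NcstnΔKC 2 to 4 lie apart from the other arrays at or near the floor of miR-145a-5p, and neither set of arrays is large enough for an r of its own. Both miRNAs of an array share its RNA, its hybridisation and its scaling factor.

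**Figure D3:**
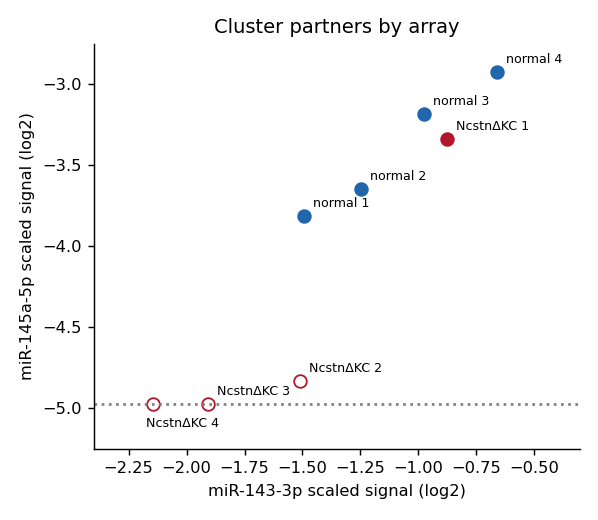
Scaled signal (log2) of miR-145a-5p (vertical) against miR-143-3p (horizontal), 1 point per array, NcstnΔKC red and normal blue, open where miR-145a-5p was not detected, with a dotted line at the floor of -4.97. NcstnΔKC 1 lies close to the 4 normal arrays, while NcstnΔKC 2 to 4 sit at or next to the floor.

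The within-array ratio, in which any scaling by array cancels except at the floor, was used to ask whether the members differed by unequal amounts. The log2 ratio of miR-143-3p to miR-145a-5p was 2.46, 3.32, 3.07 and 2.83 on NcstnΔKC arrays 1 to 4, against 2.32, 2.40, 2.21 and 2.26 on normal arrays 1 to 4. All 4 NcstnΔKC values lay above all normal values. The means were 2.92 ± 0.37 in NcstnΔKC skin and 2.30 ± 0.08 in normal skin (SD, n = 4 each), a difference of 0.62 (exact two-sided permutation p = 0.0286, the smallest that 70 labelings can give).

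This ratio rests on miR-145a-5p values at or below the detection limit on 3 arrays. Without the floor, the ratio of intensities was 5.51, 9.99, 12.9 and 8.65 on NcstnΔKC arrays 1 to 4, against 4.98, 5.26, 4.61 and 4.80 on normal arrays 1 to 4, so the one NcstnΔKC array that detected both miRNAs was 5.51 beside a normal maximum of 5.26. The difference of the log2 ratio turned negative with a floor 2 times as high (-0.091), with normexp background correction (-0.13), with the brightest probe alone (-0.081) and with the mean of log2 values over probes (-0.27). Without normal 1, normal 2, normal 3 or normal 4 its exact permutation p was 0.0571. The size of the ratio does not compare the abundance of the 2 miRNAs, because their probes differ.

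Among the other 221 tested miRNAs, those whose pattern over the 8 arrays was most like that of each member were taken by Pearson's r on scaled log2 values, as a description. For miR-143-3p they were miR-145a-5p (0.93), miR-146a-5p (0.90), a repressor of innate immune signalling, and miR-101a-3p (0.89). The median r with miR-143-3p over the 221 was 0.17, and miR-145a-5p was the 1 miRNA above 0.9. For miR-145a-5p they were miR-466q (0.97), miR-669p-3p (0.97) and miR-467f (0.95), which belong to a rodent repeat family. miR-143-3p came in place 7, 17 miRNAs were above 0.9, and the median was 0.17. The mature sequences of 4 of these 5 miRNAs are shown to set their seeds side by side. They come from RefSeq (GRCm38.p6), written 5′ to 3′ with the seed, bases 2 to 8, in capitals, and no 2 of them share a seed.
miR-146a-5p, chr11:43374435-43374456, minus strand: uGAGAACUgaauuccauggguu
miR-101a-3p, chr4:101346957-101346977, minus strand: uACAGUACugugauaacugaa
miR-466q, chr3:28419988-28420007, plus strand: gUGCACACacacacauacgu
miR-467f, chr11:69635419-69635439, minus strand: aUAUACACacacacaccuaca

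miR-146a-5p had scaled log2 levels of -1.27, -3.12, -3.34 and -3.42 on NcstnΔKC arrays 1 to 4, against -1.96, -2.52, -1.01 and -1.33 on normal arrays 1 to 4. As in the 2 members, NcstnΔKC 1 lay within the normal range and the other NcstnΔKC arrays lay below it. Its log2 difference was -1.08 ± 0.52 (SE, limma adjusted p = 0.131), and without NcstnΔKC 1 it was -1.59 ± 0.36 (SE, limma adjusted p = 0.0124). The second value supports nothing further. miR-146a-5p was picked for its likeness to miR-143-3p, and the array left out held its highest NcstnΔKC value. miR-101a-3p differed by -0.32 ± 0.16 (SE, limma adjusted p = 0.138). In the repeat family, miR-466q was lower in NcstnΔKC skin by 1.22 on the log2 scale (adjusted p = 0.0137), miR-669p-3p by 1.03 (0.0169) and miR-467f by 1.26 (0.00678), all in the same limma fit. miR-466q was at the floor on NcstnΔKC arrays 2 to 4, as miR-145a-5p nearly was. Its size, its p and its r with miR-145a-5p therefore depend on where the floor was set. These 3 were picked for their likeness to miR-145a-5p, so their calls add no support to its call.

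miRNAs known to accompany the change of smooth muscle cells from the contractile to the dividing state were examined as a list of 9. Of the 8 tested, 1 was higher in NcstnΔKC skin (14.9% of all tested were), 0 were lower (27.9%) and 7 did not pass, with a median log2 difference of -0.10 beside -0.23 over all tested miRNAs. That median turned positive with the percentile over all probes (0.77, beside 0.64 over all tested), quantile normalization (0.18, beside -0.06) and loess (0.12, beside -0.05). On unscaled values it was -0.36 (beside -0.49), and 2 were lower, beside 101 of all 222. On spike-in-scaled values it was -0.41 (beside -0.54), and 1 was lower, beside 91 of all 222. The 1 that was higher as reported was miR-21a-5p, which is also abundant in inflamed and proliferating tissue. Its difference was 2.51 ± 0.23 (SE, limma adjusted p = 0.000477). miR-221-3p, which promotes smooth muscle proliferation, differed by -0.14 ± 0.16 (SE, limma adjusted p = 0.502), and its cluster partner miR-222-3p was detected on 0 NcstnΔKC arrays and 1 normal array. Without NcstnΔKC 1, miR-27b-3p also passed as higher (0.53, limma adjusted p = 0.0310). miR-146a-5p then passed as lower, with the limit given above for that array. In that fit 33 of the 226 tested miRNAs were higher and 63 lower.

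Fibroblasts and other mesenchymal cells share some miR-143 and miR-145 expression with smooth muscle. Of 9 listed mesenchymal miRNAs, 8 were found on the array by name, 7 were tested and miR-214-5p was detected on 0 arrays. Of the tested, 4 were higher in NcstnΔKC skin, 0 were lower and 3 did not pass, with a median log2 difference of 0.55, where 14.9% of all tested miRNAs were higher with a median of -0.23. The 3 that did not pass were miR-199b-5p (-0.09), miR-29a-3p (0.07) and miR-29c-3p (-0.38). The higher ones were miR-214-3p (1.21 ± 0.22, adjusted p = 0.00404) and miR-199a-5p (1.06 ± 0.25, adjusted p = 0.0120), which share a primary transcript, miR-199a-3p (0.69 ± 0.19, adjusted p = 0.0227) and the collagen regulator miR-29b-3p (0.55 ± 0.17, adjusted p = 0.0291), as log2 differences ± SE in the limma fit. In the 6 scalings run on the list (as reported, percentile over all probes, quantile, loess, none and spike-in), the differences of these 4 were positive and those of miR-145a-5p negative, as were those of miR-143-3p except with the percentile over all probes. With no scaling 2 of the 7 were higher and 1 lower, beside 24 and 101 of all 222. Spike-in scaling gave the same counts for the list, beside 18 and 91 of all 222. With the percentile over all probes 1 was higher and 0 lower, beside 12 and 0 of all 222. Without NcstnΔKC 1, 3 were higher and 1 lower, beside 33 and 63 of all 226. In that fit miR-29b-3p no longer passed (limma adjusted p = 0.0524). The lower one was miR-29c-3p (-0.51, limma adjusted p = 0.0426).

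Markers of other skin cell types were set beside the members. The scaled signal summed over the 2 tested smooth muscle miRNAs was 0.644, 0.386, 0.298 and 0.258 on NcstnΔKC arrays 1 to 4, against 0.426, 0.501, 0.619 and 0.765 on normal arrays 1 to 4. The other 2 of 4 listed smooth muscle markers, miR-143-5p and miR-145a-3p, were detected on 0 arrays. Striated muscle, which lies beneath mouse skin, has its own miRNAs, and the 5 of 8 that were tested summed to 38.6, 6.44, 13.0 and 13.2 on NcstnΔKC arrays 1 to 4, against 17.6, 50.9, 84.6 and 68.4 on normal arrays 1 to 4. As with miR-143-3p and miR-145a-5p, NcstnΔKC 1 was the highest NcstnΔKC array and normal 1 the lowest normal array.

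Of the 5 tested striated muscle miRNAs, 0 were higher, 1 was lower and 4 did not pass, with a median log2 difference of -1.73, where 27.9% of all tested miRNAs were lower with a median of -0.23. The lower one was miR-1a-3p (-1.83 ± 0.63, SE, limma adjusted p = 0.0451). Without NcstnΔKC 1 miR-1a-3p differed by -2.32 (limma adjusted p = 0.0174) and 4 of the 5 were lower, beside 63 of all 226 tested. On unscaled and spike-in-scaled values 4 of the 5 were also lower, beside 101 and 91 of all 222. With the percentile over all probes, quantile normalization or loess 0 of the 5 passed, beside 12, 70 and 71 of all 222. The defining heart and slow muscle miRNAs miR-208a-3p, miR-208b-3p and miR-499-5p were detected on 0 arrays. The part of striated muscle content in the difference of miR-143-3p and miR-145a-5p was not tested.

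Endothelial cells line the vessels that smooth muscle wraps. Their miR-126a-3p, which maintains vessel integrity, had a log2 difference of 0.15 ± 0.14 (SE, limma adjusted p = 0.392), or -0.11 on unscaled and -0.16 on spike-in-scaled values, and its summed list signal was 2.70 to 3.29 on NcstnΔKC arrays and 2.34 to 3.03 on normal arrays. miR-126a-5p, the other of 2 listed, was detected on 1 NcstnΔKC array and 0 normal arrays. The endothelial signal overlapped between the groups, although here too NcstnΔKC 1 was the highest and NcstnΔKC 4 the lowest NcstnΔKC array, and normal 1 the lowest normal array.

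The mesenchymal list summed to 21.0 to 29.3 on NcstnΔKC arrays and 19.3 to 20.2 on normal arrays. The white blood cell list summed to 2.62, 2.91, 6.53 and 8.26 on NcstnΔKC arrays 1 to 4, against 1.82, 1.87, 2.29 and 2.54 on normal arrays 1 to 4, with 1 of 4 tested (of 5 listed) higher, 0 lower and a median log2 difference of 1.02, where 14.9% of all tested miRNAs were higher with a median of -0.23. The 1 was miR-142a-3p, found in all blood cell lineages (1.52 ± 0.33, SE, limma adjusted p = 0.00792). Without NcstnΔKC 1, 2 of the 4 were higher, beside 33 of all 226 tested.

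Of the 7 miRNAs of keratinocytes and epithelium, to which Cre is directed, 0 were higher, 4 were lower and 3 did not pass. Of all tested, 14.9% were higher and 27.9% lower. The median log2 difference of the list was -0.58. With the percentile over all probes it was 0.29, beside 0.64 over all tested, and 0 passed, beside 12 of all 222. The largest difference in the list was that of miR-429-3p (-0.81, limma adjusted p = 0.00466), a member of the miR-200 family, which maintains the epithelial state. The other lower ones were miR-200a-3p (-0.74, limma adjusted p = 0.0120), miR-203-3p (-0.68, 0.0139) and miR-200b-3p (-0.58, 0.0191). The 3 that did not pass went the other way. They were miR-205-5p (0.47, limma adjusted p = 0.0518) and 2 further miR-200 family members, miR-141-3p (0.30) and miR-200c-3p (0.12). Without NcstnΔKC 1, 4 were lower and 1 was higher, beside 63 and 33 of all 226. The higher one was miR-205-5p (0.56, limma adjusted p = 0.0252). The summed signal of the 7 overlapped, at 22.7 to 30.3 on NcstnΔKC arrays and 22.5 to 27.4 on normal arrays. Of 4 adipose miRNAs 3 were lower and 0 higher, beside 27.9% and 14.9% of all tested. The lower ones were miR-193a-3p (-1.16, limma adjusted p = 0.00166), miR-365-3p (-1.03, 0.00766) and miR-193b-3p (-0.79, 0.0421). Without NcstnΔKC 1, 2 of the 4 were lower, beside 63 of all 226. With the percentile over all probes 0 were lower, beside 0 of all 222. The adipose median log2 difference was -0.91, beside -0.23 over all tested. The adipose sums were 1.45 to 1.98 on NcstnΔKC arrays and 2.14 to 3.60 on normal arrays. Of 2 red blood cell miRNAs 1 was lower and 0 higher, beside 27.9% and 14.9% of all tested. With the percentile over all probes, quantile normalization or loess 0 were lower, beside 0, 32 and 30 of all 222. The lower one, miR-486a-5p, was detected on 1 NcstnΔKC array and 4 normal arrays. Both gave sums of 1.04 to 2.80 on NcstnΔKC arrays and 0.681 to 1.83 on normal arrays. The part of these cell types in the values of miR-143-3p and miR-145a-5p was not tested.

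**Figure D4:**
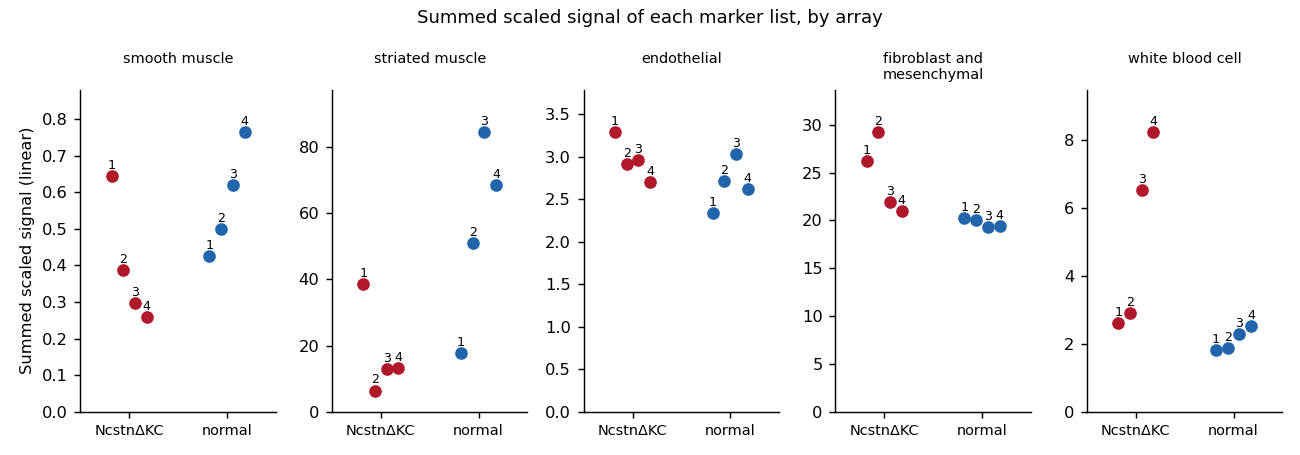
Scaled signal summed over the tested miRNAs of 5 marker lists (linear axes from 0) on each array, NcstnΔKC left in red and normal right in blue, with replicate numbers above the points. In the smooth and striated muscle panels NcstnΔKC 1 lies within the normal range, and the white blood cell signal is highest on NcstnΔKC 3 and 4, at 6.53 and 8.26.

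The dependence of the 2 members on processing was unequal. The log2 difference of miR-143-3p lay between -0.93 and 0.35 over the 19 other settings, and 1 of them, array weights, took it past the threshold (adjusted p = 0.00299 in limma, where 67.1% of the 222 miRNAs passed, 43.7% with lower values in NcstnΔKC skin). That of miR-145a-5p lay between -1.70 and -0.15, and settings that treat low signals or several probes in another way were among those that gave smaller sizes. With normexp and an offset of 50 it was -0.15 ± 0.12 (SE, limma adjusted p = 0.386), with the mean of log2 values over its probes -0.24 ± 0.15 (0.222), and with a floor 2 times as high -0.42 ± 0.24 (0.192).

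**Figure D5:**
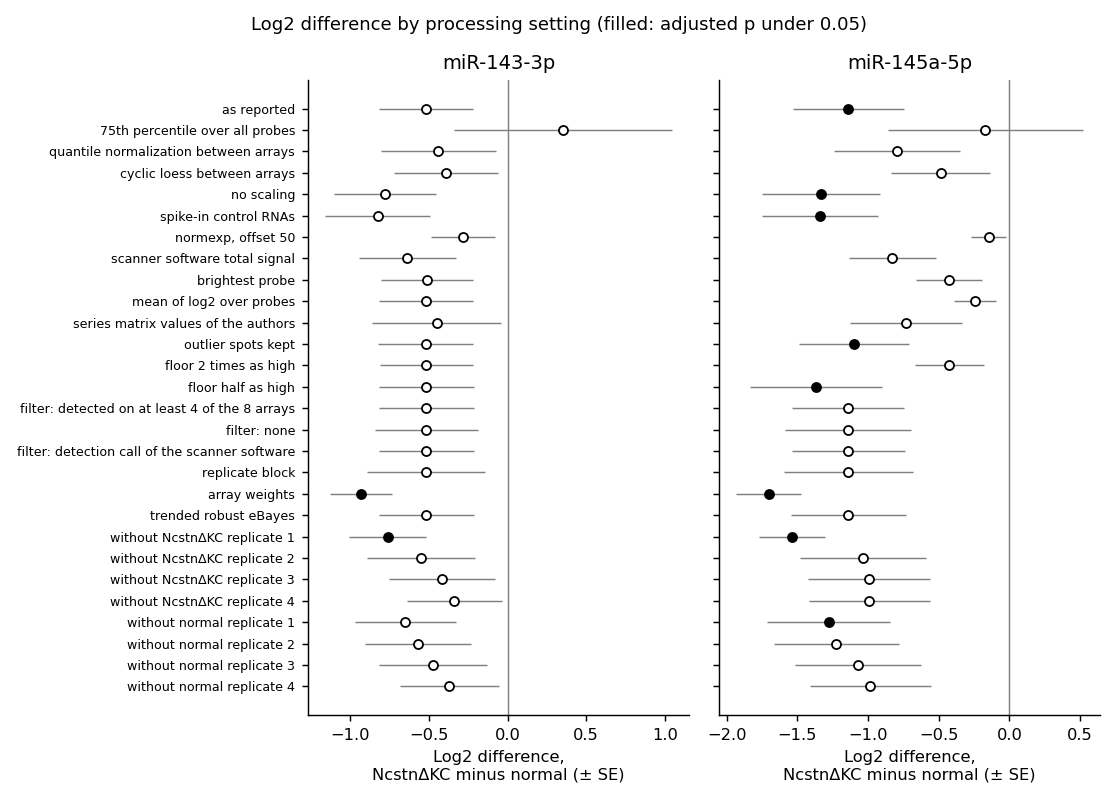
Log2 difference, NcstnΔKC minus normal, of miR-143-3p and miR-145a-5p under each processing setting and with each array left out, with bars for ± SE and filled points where the limma adjusted p was under 0.05. The points of miR-145a-5p all lie below 0, from -1.70 to -0.15, and those of miR-143-3p lie below 0 except at 0.35 with the percentile over all probes.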

How the data were processed

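Skin RNA of 8 samples was hybridised to 1-colour Agilent miRNA arrays. Per the file headers, Feature Extraction 10.7.1.1 gave processed intensity per spot after background subtraction, with probe positions in build mm9 and no scaling between arrays. The authors also deposited log2 values per miRNA, whose normalization and centring are not given in the sources used here; they ran in the same direction as the software's totals (r of 0.883 to 0.909).

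Here outlier and control spots were left out, the spots of a probe were averaged, each array was scaled to the 75th percentile of the 301 probes detected throughout, probes were summed per miRNA, values were floored at 0.0318 and log2 was taken. Detection of a probe required that 50% or more of its used spots exceed background by the software's flag, and detection of a miRNA required 1 such probe. The 222 miRNAs detected on all 4 arrays of a group were tested with limma 3.58.1 in R 4.3.3 on group alone, with Benjamini-Hochberg adjustment and a threshold of 0.05. The script was tested on simulated data. Single ratios and correlations were tested by exact permutation. Named miRNAs are the members, their hairpin relatives, the 3 most correlated miRNAs of each tested member, and up to 4 changed miRNAs of each list by smallest p (smooth muscle, smooth muscle switching, fibroblast and mesenchymal, striated muscle, endothelial, keratinocyte and epithelial, white blood cell, red blood cell, adipose); a few others are named to complete a list. The members, lists and alternatives were chosen with earlier results of these data known. Alternatives were other scalings, background correction, probe summaries, floors, filters, array weights, a robust trended eBayes, the replicate number as a block and leaving out each array.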

Additional observations from a re-analysis of the deposited data

Results flagged for a closer look

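In NcstnΔKC skin the array NcstnΔKC 1 stood apart from the other 3 in 5 of the 50 groups of 4 values examined (the gap to the nearest value, divided by the range, was above 0.829). Chance gives about 1 in 20 for independent groups. These groups are not independent, so the count is not set against that share. For miR-145a-5p this held on 3 scales, which are readings of the same spots. Its scaled log2 level there was -3.34 (gap over range 0.913), its summed intensity 114.7 scanner units (0.888) and its deposited log2 value 5.07 (0.854). The scaled log2 level of miR-146a-5p on NcstnΔKC 1 was -1.27 (0.859), and that of miR-466q was -3.92 (1.0, since the other 3 arrays are at the floor). Both miRNAs had been picked for their likeness to a member over the same arrays.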

How the results depend on the processing

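The signal of miR-145a-5p near background on 3 of 4 NcstnΔKC arrays limits its size and its ratio to miR-143-3p, and miR-145a-3p was detected on 0 of 8 arrays also by the software's own call. The cause of the changes below was not tested, except that filters change how many miRNAs are tested and floors where low values are set. Dividing an array by another scaling factor moves all its values above the floor by the same log2 amount.

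Against 95 miRNAs called, the percentile over all probes gave 12, the scanner software's totals 63, no filter 19, array weights 149 (estimated without full convergence) and a 2-fold minimum 54, with 58 to 96 over the arrays left out in turn (58 without NcstnΔKC 3). The calls split into 33 higher and 62 lower, against 12 and 0 for the all-probe percentile, 38 and 32 for quantile normalization, 41 and 30 for cyclic loess, 24 and 101 on unscaled values, 18 and 91 for spike-in scaling, 36 and 28 with normexp, and 36 and 36 with the deposited values. The median difference of all tested miRNAs, -0.23, became 0.64, -0.06, -0.05, -0.49, -0.54, -0.07 and -0.14 in these settings, in that order. The all-probe percentile covers 4415 probes, of which 301 were detected on all arrays. The SE was 0.69 there for miR-143-3p, for miR-145a-5p and for every other listed miRNA that passed as reported.

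The difference of miR-143-3p became 0.35 for the all-probe percentile and was -0.93 with array weights, past the threshold; it was -0.76 to -0.34 over the arrays left out. That of miR-145a-5p missed the threshold at -0.17 for the all-probe percentile, -0.79 with quantile normalization, -0.49 with loess, -0.15 with normexp, -0.83 with the software's totals, -0.43 with the brightest probe, -0.24 with the mean of log2 values, -0.73 with the deposited values and -0.42 with a floor 2 times as high. At an unchanged -1.14 it missed the threshold with detection on at least 4 of the 8 arrays (limma adjusted p = 0.0515), no filter (0.374), the software's detection call (0.0526) and a trended robust eBayes (0.0506). It passed with no scaling (-1.33), spike-in scaling (-1.34), outlier spots kept (-1.10), a floor lowered by a factor of 2 (-1.37) and array weights (-1.70), and was -1.54 to -0.98 over the arrays left out.

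The difference of the log2 ratio of miR-143-3p to miR-145a-5p missed the threshold for the all-probe percentile (0.52), quantile normalization (0.36), loess (0.10), the totals (0.19) and the deposited values (0.28), and turned to -0.13 with normexp, -0.081 with the brightest probe, -0.27 with the mean of log2 values and -0.091 with a floor 2 times as high; it was 0.49 to 0.78 over the arrays left out. Their correlation was 0.78 to 0.99 in 13 settings and 0.91 to 0.97 over the arrays left out.

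The replicate numbers of the groups did not pair the arrays: correlations of deviations were -0.44, 0.20, -0.26 and -0.23 for numbers 1 to 4, and 0 of 4 matched best with their own number. With the replicate number as a block 71 miRNAs were called, miR-143-3p had a limma adjusted p of 0.329 and miR-145a-5p one of 0.123 at -1.14.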
